A study of Homo sapiens with 5 samples.

Results

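The genes described here are those of arginine and polyamine metabolism, a list of 10 symbols of which 9 had a probe set that names them alone, among 14812 genes measured in all. The list held ASS1, ASL, OAT, ODC1, AZIN1, SAT1, SMS, SRM, AMD1 and ARG2. ARG2, the mitochondrial arginase, is not analysed here because no probe set named it alone. Where a gene had several probe sets, the one with the highest mean log2 value over the 5 arrays was to be chosen, but each of the 9 genes had 1, so none of their probe sets was selected on intensity. The symbols themselves were proposed with earlier results of these arrays known. Their values are therefore given as a description, beside the same quantity over all genes.

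Transcripts were measured on 3 shRB arrays and 2 shControl arrays of LNCaP, an androgen-responsive cell line from a human prostate cancer metastasis, grown with serum. The shRB cells carried a retroviral short hairpin RNA against RB1, the retinoblastoma tumour suppressor gene, and the shControl cells a scrambled hairpin, both under puromycin selection. Cells of both groups had received 10 Gy of ionizing radiation 24 h before RNA isolation. Unirradiated cells were not analysed here, so every difference is between irradiated populations. Whether arrays with the same hairpin came from separate cultures is not stated in the labels, so the p-values reflect the spread between arrays only, and that spread may be technical.

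The array medians lay between 26.6 and 28.1 on the deposited linear intensity scale, and pairs of arrays correlated across genes at r = 0.983 to 0.986 within shRB, 0.966 within shControl and 0.955 to 0.970 between groups. RB1 averaged 5.21 ± 0.06 in shRB and 5.76 ± 0.08 in shControl on the log2 scale (SD, n = 3 and n = 2), a log2 difference of -0.54 that did not pass (limma adjusted p = 0.0967). All shRB arrays (5.16, 5.28 and 5.20) lay below both shControl arrays (5.81 and 5.70), as for 15.4% of all genes. As deposited, shRB stood at 0.686 of shControl, and at 0.555 with an apparent constant of 16 taken off the linear means. The prostate marker KLK3 stood at 10.08 ± 0.01 in shRB and 10.13 ± 0.06 in shControl. The stromal markers DCN and LUM lay close to the lowest deposited value, a log2 intensity of 4, in both groups (4.27 and 4.39 in shRB, 4.47 and 4.31 in shControl). Some other markers outside the luminal list stood higher. CD68, VWF and KRT5 averaged 7.06, 5.61 and 5.34 in shRB and 6.84, 6.26 and 5.15 in shControl. The marker list held 38 symbols for luminal, basal, stromal, blood, endothelial and neuroendocrine cells, with ACPP and ACP3 naming the same gene. Of these, 19 were measured and 0 passed (limma), with 2 at an unadjusted p under 0.05. Those 2, VWF and the basal marker KRT15, differed by -0.65 and -0.40. Of all genes, 1.07% passed at an adjusted p under 0.05 (159 genes, 103 higher and 56 lower), and 18.1% had an unadjusted p under 0.05. Once the apparent constant of 16 was removed (4 added to keep the logarithm stable), 4 genes passed as higher and 9 as lower.

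Arginine is made from citrulline by argininosuccinate synthase and argininosuccinate lyase, and arginase splits it into urea and ornithine. Ornithine is either converted by ornithine aminotransferase towards glutamate and proline, or decarboxylated to putrescine, the smallest polyamine. Putrescine is extended to spermidine and then spermine with aminopropyl groups that come from decarboxylated S-adenosylmethionine, and acetylation of spermidine and spermine opens their breakdown and export. The prostate is known for making and secreting large amounts of polyamines, and ornithine decarboxylase is a classical androgen-responsive enzyme in that tissue.

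Of the 9 genes, 1 passed the test across all genes, ASS1, which was lower in shRB, against 0.378% of all genes that passed as lower and 0.695% that passed as higher. The polyamine-acetylating enzyme gene SAT1 was also lower on every shRB array but did not pass. The biosynthetic genes ODC1, AMD1, SRM and SMS differed by between -0.22 and -0.086 on the log2 scale and none passed. OAT had the only positive difference, at 0.42, and did not pass. In total 8 of the 9 differences were negative, with a median of -0.15, while 46.2% of all genes had a negative difference and their median was 0.024.

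ASS1, argininosuccinate synthase, catalyses the rate-limiting step of arginine synthesis from citrulline. Its log2 intensity was 7.93, 7.76 and 7.62 in shRB replicates 1 to 3, against 8.58 and 8.56 in shControl replicates 1 and 2. All 3 shRB arrays lay below both shControl arrays, and the shControl arrays were nearly equal. Over all genes the SD averaged 0.15 in shRB and 0.20 in shControl. The means were 7.77 ± 0.16 in shRB (SD, n = 3) and 8.57 ± 0.012 in shControl (SD, n = 2). ASS1 thus fell by 0.80 on the log2 scale (SE 0.15, 95% interval -1.14 to -0.46, limma adjusted p = 0.0351). As deposited, shRB stood at 0.574 of shControl, and at 0.558 with the constant of 16 taken off the linear means. Differences as low as this or lower were seen in 56 of the 14812 genes. The call was lost without shRB replicate 1, 2 or 3 (adjusted p = 0.123, 0.179 and 0.208), without shControl replicate 2 (0.0577), with array weights (0.0615), with the constant removed (0.160) and with the replicate number as a block (0.224), while the difference stayed between -0.88 and -0.73 under all 13 alternatives. Leaving out dim genes, averaging probe sets and the intensity trend could not change this difference. The block gave the same difference as the fit without shRB replicate 3, -0.73. RefSeq lists 14 ASS1 pseudogenes, none with a probe set naming it alone here. Whether any of them shares signal with the ASS1 probe set was not tested.

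RefSeq gives ASS1 more than 1 start on chromosome 9. The window before the upstream start is shown because ASS1 carries the one call among these genes, and that of SAT1 because it had the next largest difference in size. In both windows no base is in capitals, since capitals mark the hexamer CACGTG, the E-box bound by MYC and related factors, and neither window holds it. The windows are the 250 bases before the start, in GRCh38.p14, at chr9:130444457-130444706 (plus strand) and chrX:23782923-23783172 (plus strand).
ASS1: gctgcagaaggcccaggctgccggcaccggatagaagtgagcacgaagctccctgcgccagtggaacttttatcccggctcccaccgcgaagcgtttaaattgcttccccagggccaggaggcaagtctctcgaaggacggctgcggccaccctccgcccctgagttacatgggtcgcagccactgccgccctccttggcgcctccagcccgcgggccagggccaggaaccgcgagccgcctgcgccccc
SAT1: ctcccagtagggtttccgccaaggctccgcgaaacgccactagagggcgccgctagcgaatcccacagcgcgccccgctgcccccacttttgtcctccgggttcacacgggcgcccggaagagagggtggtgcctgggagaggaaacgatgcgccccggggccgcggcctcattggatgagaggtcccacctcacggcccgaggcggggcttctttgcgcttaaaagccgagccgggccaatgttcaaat

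**Figure D1:**
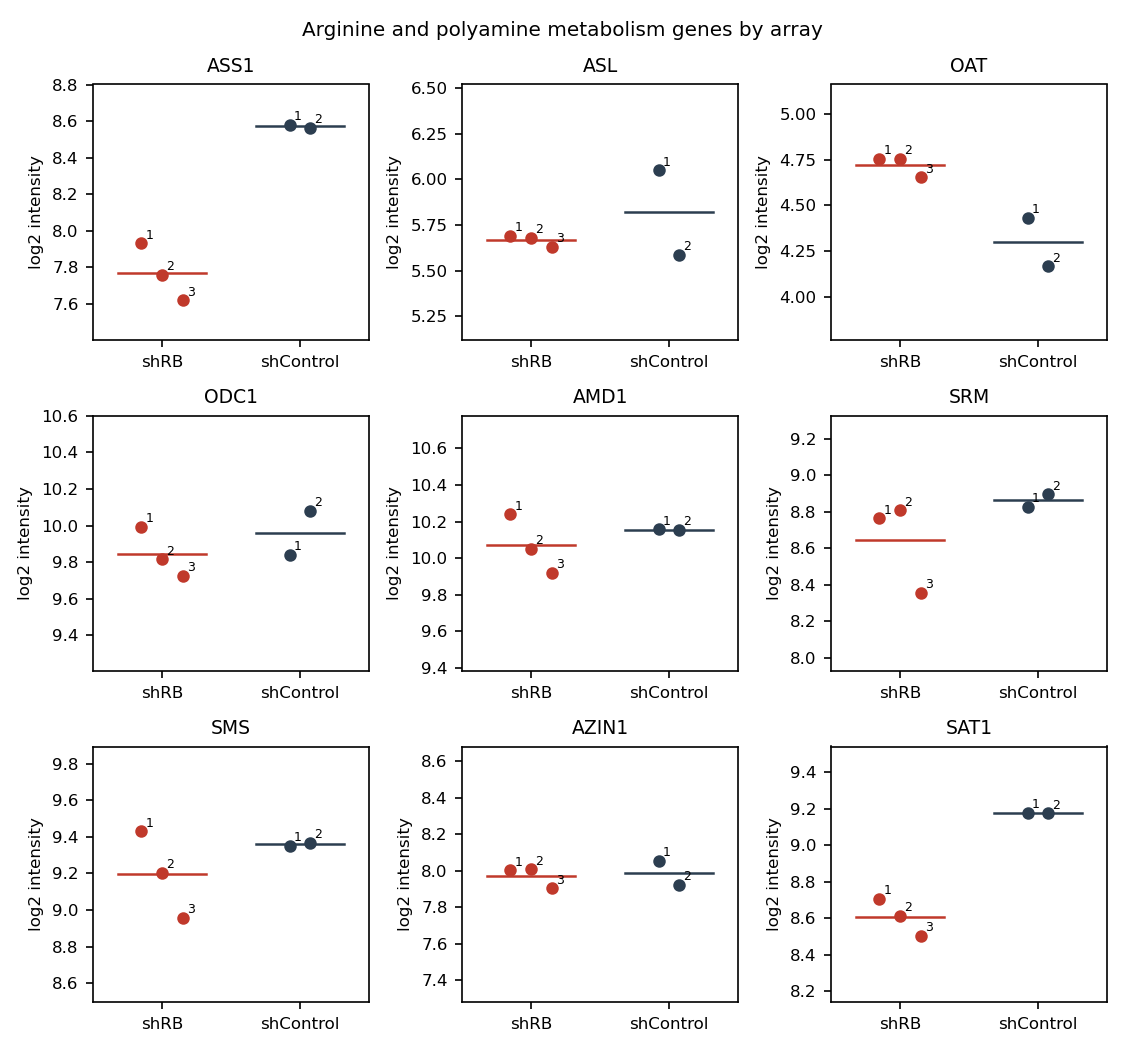
Log2 intensity of the 9 genes on each array, with shRB arrays (red, replicates 1 to 3) left of shControl arrays (dark, replicates 1 and 2). Lines are group means, each panel spans 1.4 log2 units, and the shRB points lie wholly below shControl for ASS1, SAT1 and SRM and wholly above it for OAT.

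ASL, argininosuccinate lyase, releases arginine from the product of ASS1. Its log2 intensity was 5.69, 5.68 and 5.63 in shRB, against 6.05 and 5.59 in shControl. The groups overlapped, and the 2 shControl arrays lay 0.46 apart, more than the difference of -0.15 between the group means (SE 0.17, 95% interval -0.52 to 0.22, limma adjusted p = 0.673). Without shControl replicate 1 the sign turned, to 0.080. Whether the difference of ASS1 exceeds that of ASL was not tested.

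OAT, the mitochondrial ornithine aminotransferase, diverts ornithine towards glutamate semialdehyde. It was dim on all arrays, at log2 4.76, 4.76 and 4.65 in shRB, against 4.43 and 4.17 in shControl. All shRB arrays lay above both shControl arrays, which were close to the lowest deposited value, and the gene is not shown to be above background in shControl. The log2 difference was 0.42 (SE 0.15, 95% interval 0.089 to 0.76) and did not pass (limma adjusted p = 0.180). The ratio of shRB to shControl was 1.34 as deposited and 2.76 with the constant taken off, so its size depends on that constant.

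ODC1, ornithine decarboxylase, makes putrescine and is the rate-limiting enzyme of polyamine synthesis. Its log2 intensity was 9.99, 9.82 and 9.72 in shRB, against 9.84 and 10.08 in shControl. The groups overlapped, with a log2 difference of -0.11 (SE 0.16, 95% interval -0.46 to 0.23, limma adjusted p = 0.741). The interval excludes a fall or a rise of more than 0.46 in size under this model. AZIN1, antizyme inhibitor 1, a catalytically inactive relative of ornithine decarboxylase that frees the enzyme from antizyme, was at 8.003, 8.007 and 7.904 in shRB and 8.055 and 7.923 in shControl on the log2 scale, and the groups overlapped. Its difference of -0.017 was the smallest of the 9 genes (SE 0.15, 95% interval -0.34 to 0.30, limma adjusted p = 0.966).

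AMD1, S-adenosylmethionine decarboxylase, provides the aminopropyl donor. Its log2 intensity was 10.24, 10.05 and 9.92 in shRB, against 10.16 and 10.15 in shControl. The shControl values fell inside the shRB range, and the difference was -0.086 (SE 0.15, 95% interval -0.42 to 0.25, limma adjusted p = 0.808).

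SRM, spermidine synthase, adds the aminopropyl group to putrescine. It was at 8.77, 8.81 and 8.36 in shRB and 8.83 and 8.90 in shControl on the log2 scale. All shRB arrays lay below both shControl arrays, but replicates 1 and 2 did so by little and replicate 3 by far more. The difference was -0.22 (SE 0.17, 95% interval -0.59 to 0.16, limma adjusted p = 0.539), and -0.075 without shRB replicate 3. SMS, spermine synthase, which makes spermine from spermidine, was at 9.43, 9.20 and 8.96 in shRB, against 9.35 and 9.37 in shControl. The shRB arrays spread over 0.47 and enclosed both shControl arrays, with a difference of -0.16 (SE 0.17, 95% interval -0.53 to 0.21, limma adjusted p = 0.652).

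SAT1, spermidine/spermine N1-acetyltransferase, is the inducible enzyme that starts polyamine breakdown and export. Its log2 intensity was 8.71, 8.61 and 8.50 in shRB, against 9.18 and 9.17 in shControl. All shRB arrays lay below both shControl arrays by more than the shRB arrays differed among themselves. The means were 8.61 ± 0.10 in shRB (SD, n = 3) and 9.17 ± 0.00065 in shControl (SD, n = 2), a log2 difference of -0.57 with an SE of 0.15 and a 95% interval of -0.89 to -0.25. The SD of SAT1 in shControl is far below the average over all genes in that group, 0.20, and rests on 2 arrays. As deposited, shRB stood at 0.675 of shControl. It did not pass across all genes (limma adjusted p = 0.0933). It passed with genes below the median level left out (0.0458) and with an intensity trend and robust variances (0.00885), and in none of the 5 fits without 1 array (0.0909 to 0.308). SMS lies on chromosome X as SAT1 does, and its arrays overlapped between groups, with a 95% interval of -0.53 to 0.21. Whether the difference of SAT1 exceeds that of SMS was not tested. The platform annotation cites a non-coding SAT1 transcript for this probe set, and how the set divides its signal between coding and non-coding SAT1 transcripts is not known here.

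**Figure D2:**
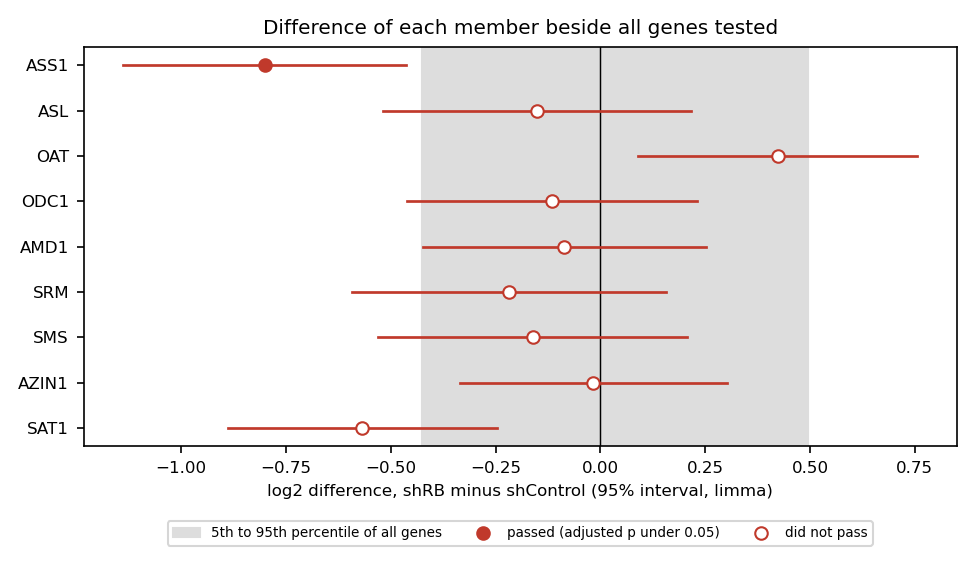
Log2 difference, shRB minus shControl, of the 9 genes with 95% intervals from limma, the filled point marking the gene that passed. The grey band runs from the 5th to the 95th percentile of all 14812 differences (-0.42 to 0.49), and ASS1 (-0.80) and SAT1 (-0.57) lie outside it.

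The arrays were apart between groups for 4 of the 9 genes, 3 lower (ASS1, SAT1 and SRM) and 1 higher (OAT). Over all genes 36.0% had arrays apart in this sense, 15.4% lower and 20.6% higher, so the share among the 9 is near that background. At an unadjusted p under 0.05, 3 of the 9 genes were counted, ASS1, SAT1 and OAT, against 18.1% of all genes.

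The shRB arrays were spread in a like order across these genes. In shRB replicate 3 all 9 genes had their lowest value of the 3 shRB arrays, against 39.1% of all genes. In shRB replicate 1, 7 of the 9 had their highest, against 37.8% of all genes. Of the 9 genes, 6 had a mean log2 intensity of 8 or more (the limit of 8 was set after the values were seen). Among all 1083 such genes shRB replicate 3 was the lowest shRB array in 55.9% and replicate 1 the highest in 60.5%. Among genes under 8 these shares were 37.8% and 36.0%. ASL, OAT and AZIN1, which lie under 8, also had their lowest shRB value in replicate 3. Whether brightness accounts for the order was not tested. Of those 1083 bright genes 56.8% had a negative difference, with a median of -0.048. Without shRB replicate 3 the differences of ASS1 and SAT1 were -0.73 and -0.52, and those of SMS, AMD1 and ODC1 were -0.042, -0.010 and -0.055. Without shRB replicate 1 they were -0.88 and -0.62 for ASS1 and SAT1, and -0.28, -0.17 and -0.19 for SMS, AMD1 and ODC1. The part of array brightness in the negative differences was not tested. In these RNA extracts of whole cultures, fewer cells with a transcript and less of it per cell cannot be told apart.

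**Figure D3:**
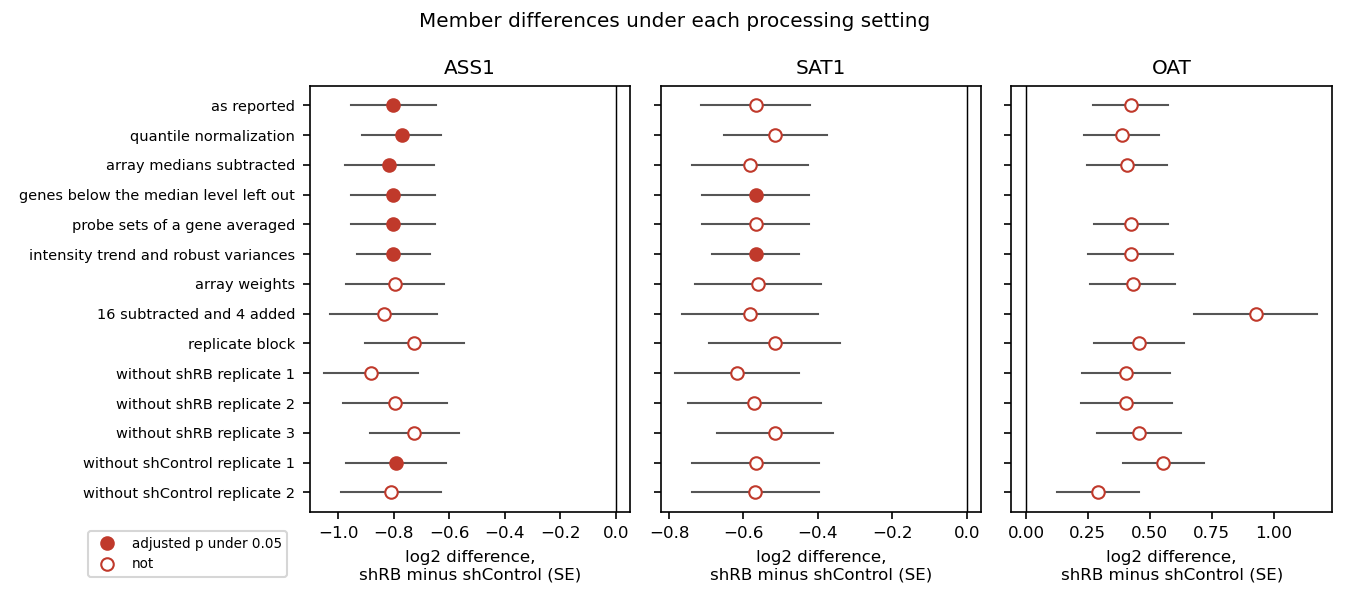
Log2 difference, shRB minus shControl, with its SE for ASS1, SAT1 and OAT under each processing setting and with each array left out, filled where the adjusted p was under 0.05. ASS1 stays between -0.88 and -0.73 and passes under 6 of 13 alternatives, SAT1 passes under 2, and OAT, which was left out with the dim genes, passes under none.

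The hexamer CACGTG was found in the 250 bases before a start of 3 genes, ASS1 (downstream start), ODC1 (downstream start) and SRM, of 8 genes with 12 windows in the RefSeq promoter table. The ASS1 and ODC1 sites lie after the upstream start of their gene, so they may lie in sequence transcribed from it. By window it was found in 3 of the 12, against 6.34% of all 35116 windows of that length. Those windows belong to 27305 genes and are not limited to genes measured here. Windows of a gene can overlap, as those of AMD1 at chr6:110874534-110874783 and chr6:110874535-110874784 do almost wholly. The sites of all 3 genes are shown with 10 bases on each side. ASS1 passed while ODC1 and SRM did not, and whether their differences are unlike was not tested. They lie at chr9:130444880-130444905 (plus strand), chr2:10448026-10448051 (minus strand) and chr1:11060202-11060227 (minus strand) in GRCh38.p14, and the capitals mark the hexamer, which begins 71, 29 and 199 bases before the start.
ASS1: gcgtccccgcCACGTGtccccggtca
ODC1: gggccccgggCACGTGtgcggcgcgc
SRM: ggccgggcccCACGTGgcccctggag

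Because RB1 encodes a repressor of E2F factors, 2 E2F octamers, TTTCCCGC and TTTGGCGC, were searched on both strands of the same windows. They were found in 0 of the 12 windows, and in 1.39% and 0.55% of all windows. The GC-box hexamer GGGCGG, bound by SP1, was found in 11 of the 12 windows, with the overlapping AMD1 windows counted separately. It was found in 42.6% of all windows, and the window of SAT1 is the one without it. The share among windows of bright genes was not determined for any of these motifs. Matches that overlap each other were allowed, and a match or its absence describes only the letters of these windows.

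The genes whose array pattern was most like that of ASS1 were GPX7, a glutathione peroxidase family member (root mean square distance 0.053 on the mean-centred log2 scale over 5 arrays), NKX6-2, a homeobox factor (0.054), and LINC00161, a long noncoding RNA (0.062). They differed by -0.74, -0.79 and -0.80 between shRB and shControl (limma adjusted p = 0.0411, 0.0315 and 0.0343). They were picked for this likeness, so their calls are a description.

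The genes around these enzymes were taken from 8 lists with 112 entries, of which 65 were measured. A single one passed, against 1.07% of all genes, and 13 had an unadjusted p under 0.05, against 18.1% of all genes (limma), so both shares are near the background. In 32.3% the arrays were apart between groups, against 36.0% of all genes. Their median log2 difference was -0.024. None of the 11 listed arginine transporters had a probe set naming it alone.

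In the methionine cycle and salvage list, APIP rose, the methylthioribulose 1-phosphate dehydratase that recovers methionine from the by-product of spermidine and spermine synthesis. Its log2 intensity was 6.83, 6.57 and 6.62 in shRB, against 5.98 and 5.90 in shControl, so all shRB arrays lay above both shControl arrays. The difference was 0.73 (SE 0.15, limma adjusted p = 0.0484). The call was lost without shRB replicate 1, 2 or 3 (adjusted p = 0.220, 0.172 and 0.212), without shControl replicate 2 (0.0824), after quantile normalization (0.0615), with array weights (0.0908), with the constant removed (0.157) and with the replicate block (0.207). Averaging the probe sets of each gene also lost it (0.0504), while the difference stayed between 0.65 and 0.86 under all 13 alternatives. The difference was left at 0.73 by averaging, by leaving out dim genes and by the intensity trend. The block repeated the difference without shRB replicate 3. Of the 17 measured genes of this list 7 stood higher and 10 lower in shRB by sign, and the median difference was -0.0075. The AHCY-like protein gene AHCYL1 was at 8.47 ± 0.21 in shRB and 9.05 ± 0.10 in shControl (log2 difference -0.58, limma adjusted p = 0.108, and 0.0150 with the intensity trend), and NNMT, which consumes S-adenosylmethionine, at 6.62 ± 0.15 in shRB and 6.06 ± 0.21 in shControl (0.56, limma adjusted p = 0.114). GNMT, a further methyltransferase of the cycle, differed by 0.44 (limma adjusted p = 0.157).

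Among polyamine catabolism, antizyme and transport genes, 0 of 11 measured passed (limma, 3 at an unadjusted p under 0.05), with 5 positive and 6 negative differences and a median of -0.058. ATP13A2, the lysosomal polyamine exporter, was at 5.86, 5.75 and 5.26 in shRB and 6.22 and 6.76 in shControl, a log2 difference of -0.87 (SE 0.21, limma adjusted p = 0.0800). It passed with array medians subtracted (0.0404), with dim genes left out (0.0332), with the intensity trend (0.0231) and without shControl replicate 1 (0.0350). GPC1, a heparan sulfate proteoglycan linked to polyamine uptake, was at 6.40, 5.98 and 6.36 in shRB and 4.64 and 5.83 in shControl, a difference of 1.01 (SE 0.28, limma adjusted p = 0.107). It passed with the intensity trend (0.0278) and without shControl replicate 2, where the difference was 1.60 (0.00523). The arrays of both genes were apart between groups, but the shControl arrays of GPC1 differed from each other by more than the difference between groups. The antizyme gene OAZ3 differed by 0.34 (limma adjusted p = 0.274). The major antizyme gene OAZ1, named here for its role and outside the naming rule, was at 10.24 ± 0.016 in shRB and 10.01 ± 0.053 in shControl (log2 difference 0.23, limma adjusted p = 0.420). The oxidase genes PAOX and SMOX, named on the same ground, differed by -0.44 and -0.24 and did not pass (limma adjusted p = 0.337 and 0.559).

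Spermidine also serves as the donor for hypusine, a modified lysine of the translation factor eIF5A. All 4 genes of that list were measured and 0 passed (limma, 1 at an unadjusted p under 0.05), with 3 positive differences and 1 negative and a median of 0.27. EIF5A2, the second eIF5A gene, was at 5.75, 5.80 and 5.94 in shRB and 4.99 and 5.33 in shControl, all shRB arrays above shControl, with a log2 difference of 0.67 (SE 0.16, limma adjusted p = 0.0744). EIF5A and the hydroxylase gene DOHH differed by 0.31 and 0.24 and did not pass (limma adjusted p = 0.366 and 0.461). Both were dim, with shControl means of 4.74 and 4.83. The EIF5A ratio of shRB to shControl was 1.24 as deposited and 1.55 with the constant taken off. The synthase gene DHPS, added to complete the list, differed by -0.19 (limma adjusted p = 0.575). EIF5A2 passed with dim genes left out (0.0328) and without shControl replicate 2 (0.0447), and CASTOR1 of the arginine list passed without shControl replicate 2 (1.03, adjusted p = 0.0316).

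Among the further arginine, urea cycle and nitric oxide genes 0 of 11 measured passed (limma, 2 at an unadjusted p under 0.05), with 6 positive and 5 negative differences and a median of 0.067. CASTOR1, the arginine sensor of the mTORC1 pathway, was at 5.78, 5.85 and 6.12 in shRB and 4.88 and 5.52 in shControl, a log2 difference of 0.71 (SE 0.20, limma adjusted p = 0.106). AGMAT differed by 0.35 and the endothelial nitric oxide synthase gene NOS3 by 0.31 (limma adjusted p = 0.228 and 0.386), and both were dim, with shControl means of 4.55 and 4.56.

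In the proline and glutamate semialdehyde list 0 of 7 measured genes passed (limma, 0 at an unadjusted p under 0.05), 3 being positive and 4 negative by sign, with a median of -0.077. Asparagine synthetase, ASNS, which like ASS1 uses aspartate, differed by -0.26, the proline synthesis gene PYCR1 by -0.22 and the proline oxidase gene PRODH by -0.14 (limma adjusted p = 0.397, 0.499 and 0.647). PRODH was dim, with means of 4.76 in shRB and 4.90 in shControl. The creatine genes GATM and GAMT differed by -0.083 and 0.066 and neither passed (limma adjusted p = 0.811 and 0.902, 0 at an unadjusted p under 0.05). GATM lay near the lowest deposited value, with means of 4.31 in shRB and 4.39 in shControl. Of 13 measured genes for enzymes that methylate, transfer or charge arginine and their partners, 0 passed (limma, 2 at an unadjusted p under 0.05), with 4 positive and 9 negative differences and a median of -0.11. The methyltransferase gene PRMT7 differed by 0.54, the arginyltransferase gene ATE1 by -0.53 and the arginyl-tRNA synthetase gene RARS1 by -0.32 (limma adjusted p = 0.137, 0.166 and 0.313).

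**Figure D4:**
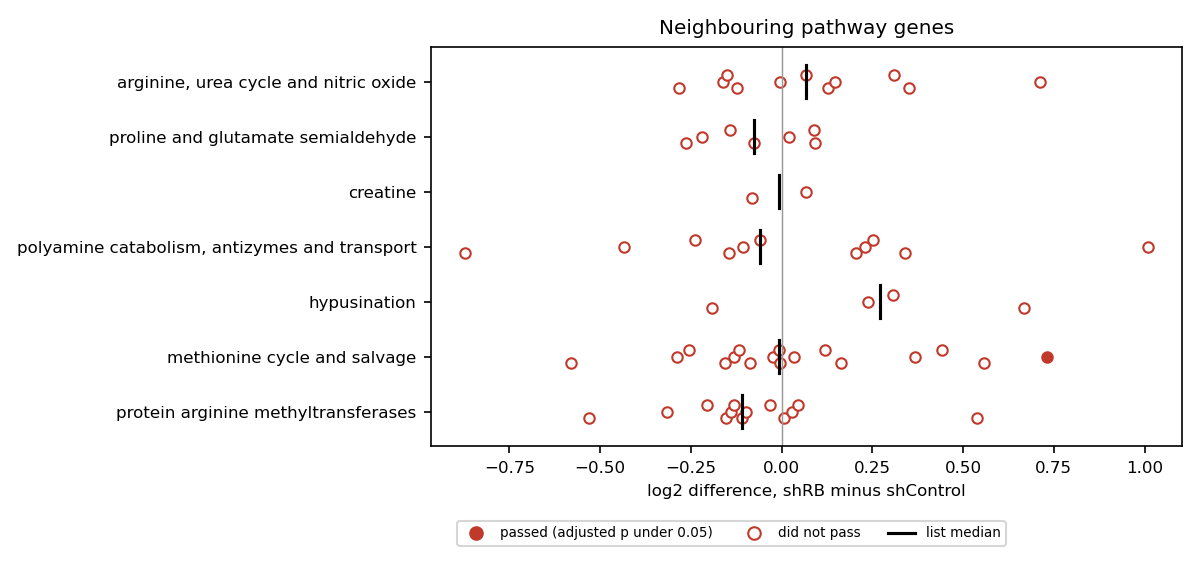
Log2 difference, shRB minus shControl, of the 65 measured genes of the neighbouring lists, 1 point per gene, with the list median as a bar and the gene that passed, APIP, filled. The lowest row also holds arginyltransferase, arginyl-tRNA synthetase and methyltransferase partner genes, and the list medians lie between -0.11 and 0.27.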

How the data were processed

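The authors deposited linear intensities, 1 per probe set and array. Their background correction, summary and normalization are not stated in the labels, and no build or software is named. No value lay below 16, as an added constant would give, which compresses fold changes of dim genes. Of 44607 probe sets, 15835 carried 1 gene symbol in the platform annotation. The other 28772, without a symbol or with more than 1, were left out. RefSeq (GRCh38.p14) gave current symbols by Entrez identifier. More than 1 probe set was found for 651 genes. On log2 values, limma 3.58.1 (R 4.3.3) compared shRB with shControl by lmFit and eBayes without covariates or filter. The test was two-sided, p-values were adjusted by Benjamini-Hochberg over 14812 genes, and 0.05 was the threshold. The test was tested on simulated data with noise independent between genes and arrays. Such data hold no order of arrays shared by genes, so no conclusion here rests on them. The number of arrays limits the precision.

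Members, lists and alternatives were chosen with earlier results of these data known. Named were RB1, KLK3, the members, every list gene that passed, beside these the 3 with the smallest p of each list, and the 3 genes nearest in pattern to the member with the largest difference. DCN, LUM, CD68, VWF, KRT5, KRT15, OAZ1, PAOX, SMOX and DHPS are named outside that rule, after their values were seen. The alternatives were quantile normalization, median subtraction, leaving out dim genes, averaging probe sets, array weights, robust variances with an intensity trend, removal of the constant (4 added), the replicate number as a block, and leaving out each array. The windows come from the RefSeq promoter table, cut to the 250 bases before each start, with 8 of the 9 genes matched.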

Additional observations from a re-analysis of the deposited data

How the results depend on the processing

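The count of genes passing moved by over 1.5 times from 159 to 385 with dim genes left out, 426 with an intensity trend and robust variances, 88 with array weights, 13 with the constant removed and 24 with the replicate block, and ranged from 22 to 411 without 1 array. Of the 9 genes of the pathway, 2 passed with dim genes left out and 2 with the intensity trend, 0 with array weights, the constant removed or the replicate block, and 0 to 1 without 1 array (limma, 2 to 3 at an unadjusted p under 0.05 wherever 0 passed). Of the neighbouring genes, 1 passed as reported, 0 after quantile normalization, with averaged probe sets, array weights, the constant removed or the replicate block, 2 with array medians subtracted, 3 with dim genes left out, 4 with the intensity trend, and 0 to 3 without 1 array (limma, 9 to 13 at an unadjusted p under 0.05 wherever 0 passed). Signs turned for AZIN1 after quantile normalization (0.0087) and without shControl replicate 1 (0.049). They also turned for AZIN1 with the replicate block and without shRB replicate 3, which give the same difference (0.017). They also turned for ASL without shControl replicate 1 (0.080) and for ODC1 without shControl replicate 2 (0.0048). There the lone shControl array stood at 5.586 for ASL and 9.840 for ODC1, below the shRB means of 5.666 and 9.845. Why the sign of AZIN1 turned after quantile normalization was not tested. Without 1 array the differences ranged from -0.083 to 0.049 for AZIN1, -0.38 to 0.080 for ASL and -0.23 to 0.0048 for ODC1. ASS1, SAT1, SRM, SMS, AMD1 and OAT kept their sign under all alternatives run. Leaving out dim genes, averaging probe sets and the intensity trend could not change the differences of these genes. The replicate block gives the same difference as leaving out shRB replicate 3, since only shRB has a replicate 3. The deviations of same-numbered arrays correlated at -0.021 and 0.046, so the numbers were not taken to pair the samples. A fit without 1 shControl array takes the lone one to vary as the shRB arrays do.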
